A study of Mus musculus with 4 samples.

Results

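Adherens junctions are the contacts by which neighbouring cells hold each other through their actin cytoskeletons. Cadherins of adjacent cells bind through their extracellular domains, and their tails are joined by beta-catenin and alpha-catenin to actin, while p120-catenin binds the tail closer to the membrane and keeps the cadherin at the surface. Nectins are immunoglobulin-like adhesion molecules that reach actin through afadin and form contacts beside the cadherins. In the skeleton, N-cadherin is known for the condensation of mesenchyme that precedes cartilage, and cadherin-11 is the main cadherin of many mesenchymal cells.

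The 9 genes described here are the cadherins Cdh2, Cdh11 and Cdh13, the catenins Ctnna1, Ctnnb1 and Ctnnd1, and the nectins Pvrl1, Pvrl2 and Pvrl3 (named Nectin1, Nectin2 and Nectin3 in later annotations). They were taken by symbol from 18298 genes with a read in at least 1 library, and all 9 passed the filter on low counts that left 14123 genes. The members were chosen by name with earlier results from the counts and RPKM values of these libraries in view, and with no cut-off on level or fold change. Their levels and differences between the groups are therefore given as a description without a test.

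Primary rib chondrocytes from E18.5 embryos of the C57BL/6 background were compared between Dermo1-Cre;Senp6f/f mutants (2 libraries) and Senp6f/f controls (2 libraries). Both groups carried the floxed Senp6 alleles, and the Cre was present in the mutants alone. The cells had been released from rib cartilage with pronase and collagenase D and were grown to passage 1 in alpha-MEM with 10% serum, and the labels name no drug treatment. Dermo1-Cre is expressed from the Twist2 (Dermo1) locus in mesenchymal progenitors, so cells of other origin in the dish keep Senp6, which encodes a protease that removes SUMO2/3 from proteins. Poly(A) RNA was sequenced, and the labels do not say whether the libraries of a group came from separate litters or culture days, so any p-value below measures the spread between these libraries.

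Reads on genes numbered 21.02 M to 30.99 M per library (M, mega). Senp6 itself had 10.8 and 18.02 RPKM (reads per kilobase of gene length per M reads on genes) in control replicates 1 and 2 and 12.02 and 8.07 RPKM in mutant replicates 1 and 2. The groups overlapped, and since the files hold no count per exon, reads outside the deleted exons are included and the recombination itself was not checked. Twist2, the locus that carries the Cre, had 5.15 and 15.1 RPKM in the controls and 8.19 and 9.07 RPKM in the mutants. Xist, the RNA of the inactive X chromosome, was read 11354 times in mutant replicate 2 and at most 5 times in the other libraries, which sets that library apart from the rest, and the labels do not give the sex or number of embryos behind a library. All 10 chondrocyte markers with a read were lower in both mutant libraries, as were 19.2% of all tested genes. Their summed level was 501 and 624 RPKM in the mutants against 952 and 961 RPKM in the controls. Col2a1, the fibrillar collagen of cartilage, led that list with 609 and 659 RPKM in the controls and 334 and 445 RPKM in the mutants. Col1a1, the collagen of fibroblasts and bone, was higher still, with 7253 and 4961 RPKM in the controls and 4828 and 3311 RPKM in the mutants, so both cartilage and fibroblast markers were present at high levels in every library.

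The upstream sequences of 3 members are shown because they cover the steadiest member, Ctnnb1, and the 2 nectins of the list that have an entry in the RefSeq promoter table for GRCm38.p6. The set used here holds 6 windows for 4 of the 9 members. It includes a later start for Ctnnb1 and 2 starts for Ctnnd1 that are described without their letters. Cdh11, Cdh13 and Pvrl1 had no entry in that table. Cdh2 and Ctnna1 were left out of the set, which does not mean that RefSeq lacks a start for them. Each run gives the 250 bases before a RefSeq transcription start on the coding strand, 5′ to 3′, with matches on either strand to the GC box GGGCGG, the CCAAT box CCAAT and the E box CACCTG of SNAI and ZEB factors in capitals. For Ctnnb1, Pvrl2 and Pvrl3, GENCODE also places transcript starts further upstream, so their windows lie within the gene spans given below. The Ctnnd1 window at chr2:84650741-84650990 crosses the upstream end of its gene span. That at chr2:84658978-84659227 lies upstream of the span.

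Ctnnb1 (chr9:120933150-120933399, plus strand): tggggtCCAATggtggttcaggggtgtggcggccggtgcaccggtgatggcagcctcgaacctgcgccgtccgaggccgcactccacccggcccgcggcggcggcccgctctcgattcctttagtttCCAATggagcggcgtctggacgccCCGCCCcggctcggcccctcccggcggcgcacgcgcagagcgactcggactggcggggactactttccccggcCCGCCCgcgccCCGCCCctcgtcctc

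Pvrl2 (chr7:19749574-19749823, minus strand): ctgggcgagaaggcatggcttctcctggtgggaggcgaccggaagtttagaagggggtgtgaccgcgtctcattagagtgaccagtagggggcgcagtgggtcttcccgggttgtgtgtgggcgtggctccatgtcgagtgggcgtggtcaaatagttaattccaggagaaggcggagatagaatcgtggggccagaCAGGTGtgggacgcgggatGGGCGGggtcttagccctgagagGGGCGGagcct

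Pvrl3 (chr16:46496968-46497217, minus strand): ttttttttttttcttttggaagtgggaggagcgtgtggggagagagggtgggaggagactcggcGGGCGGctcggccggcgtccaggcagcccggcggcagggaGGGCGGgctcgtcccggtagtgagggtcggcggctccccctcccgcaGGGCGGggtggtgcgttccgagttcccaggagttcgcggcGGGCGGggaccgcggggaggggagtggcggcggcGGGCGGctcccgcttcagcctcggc

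The shown windows had 74.8% for Ctnnb1, 62% for Pvrl2 and 73.2% for Pvrl3 of G and C against a median of 52.4% over 32851 promoter windows of the same length. GC boxes numbered 3 in the Ctnnb1 window, 2 in that of Pvrl2 and 5 in that of Pvrl3, and 32.7% of all windows held at least 1. The Ctnnb1 window had 2 CCAAT boxes, a motif found in 33.8% of all windows. Only the Pvrl2 window among these 3 had the E box, which 17.2% of all windows held. The TATA box TATAAA was in none of these 3, against 12.4% of all windows. The window before the later Ctnnb1 start (chr9:120933328-120933577) had 74.4% G and C, 2 GC boxes, 0 CCAAT boxes and 1 TATA box. Those of Ctnnd1 had 40% (chr2:84650741-84650990) and 66.8% (chr2:84658978-84659227) G and C, each with 0 GC boxes and 2 CCAAT boxes, and the one at 40% had 1 TATA box. A match describes the letters of the window and says nothing about binding in these cells.

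Among the cadherins, Cdh11 was by far the most abundant and the only member of the list that was lower in both mutant libraries. Cdh11, which encodes cadherin-11 and lies at chr8:102632095-102785642 (GRCm38 as for all positions here, minus strand), had 190.2 RPKM in control replicate 1, 148 RPKM in control replicate 2, 138 RPKM in mutant replicate 1 and 113 RPKM in mutant replicate 2. The groups did not overlap, but control replicate 2 stood closer to mutant replicate 1 than to the other control. The mean was 169 ± 29.6 RPKM in the controls and 126 ± 17.98 RPKM in the mutants (SD, n = 2 in each group), and the log2 fold change of mutant over control was -0.47 (SE 0.19). Among all tested genes, 8.77% had a lower log2 fold change. Without control replicate 1 the value was -0.25, and without control replicate 2 it was -0.69, so the size of the difference depended on which control was kept.

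Summed over 8 fibroblast and perichondrium markers, the level was 12840 and 8884 RPKM in the controls and 8957 and 6580 RPKM in the mutants. Col1a1 and Col1a2 made up most of that sum, and like Cdh11 they were highest in control replicate 1 and lowest in mutant replicate 2. Col3a1 and Dcn were also highest in control replicate 1 and lowest in mutant replicate 2. Lum was highest in control replicate 1 but lowest in mutant replicate 1. The others had another order, as Pdgfra was highest in control replicate 2, Postn in mutant replicate 1 and Thy1 in mutant replicate 2. Of these 8 markers, 5 were lower and 1 was higher in both mutant libraries (19.2% and 28.3% of all tested genes). Of 4 tested osteoblast markers, 3 were lower and 1, Spp1, was higher in both mutant libraries. In RNA from a whole culture, fewer cells that express a gene and less of its RNA per cell cannot be told apart. The part of the fibroblast or osteoblast markers in the Cdh11 values was not tested.

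Cdh2, which encodes N-cadherin (chr18:16588877-16809246, minus strand), differed little between the groups. It had 23.1 and 21.5 RPKM in the controls and 25.1 and 25.7 RPKM in the mutants. Both mutant libraries lay above both controls and the log2 fold change was 0.14 (SE 0.13). That value ranged from 0.04 without control replicate 2 to 0.22 without control replicate 1.

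Cdh13, which encodes T-cadherin, was the least abundant member in every library and had the largest log2 fold change of the list in size. T-cadherin is anchored to the membrane by a lipid and lacks the tail that binds catenins. The gene spans chr8:118283733-119324921 on the plus strand. It was read 170 and 154 times in control replicates 1 and 2 and 432 and 529 times in mutant replicates 1 and 2. Its level was 3.53 RPKM (95% Poisson interval 3.02 to 4.11) and 2.57 RPKM (2.18 to 3.01) in the controls, against 6.09 RPKM (5.53 to 6.69) and 8.18 RPKM (7.50 to 8.91) in the mutants. These intervals cover counting error only, and those of the mutants lie above those of the controls. The mean level was 3.05 ± 0.679 RPKM in the controls and 7.13 ± 1.48 RPKM in the mutants (SD, n = 2 in each group), and the log2 fold change was 1.18 (SE 0.25). A larger log2 fold change was found for 4.53% of tested genes. It ranged from 0.91 to 1.45 when 1 library was left out. Cdh13 was the only member with a difference of at least 1 on the log2 scale, which 8.35% of all tested genes reached in either direction.

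Because Cdh11 was lower while Cdh2 and Cdh13 were higher in the mutant libraries, the cadherin make-up of the libraries differed. Cdh11 held 82.7% and 79.9% of the summed RPKM of 22 Cdh genes in the controls and 72.5% and 67.4% in the mutants. Cdh2 held 10.04% and 11.6% in the controls and 13.1% and 15.3% in the mutants. The share of Cdh13 was 1.54% and 1.39% in the controls and 3.19% and 4.88% in the mutants. There were thus 8.23 and 6.90 RPKM of Cdh11 for each RPKM of Cdh2 in the controls, and 5.52 and 4.40 in the mutants. These shares rest on the same values that are described above and add no separate evidence.

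**Figure D1:**
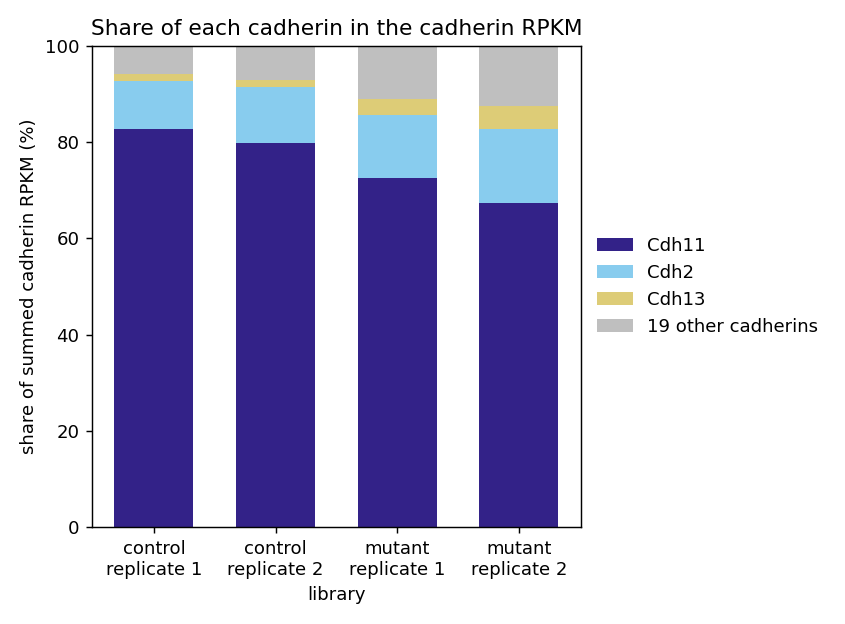
Stacked bars show, for each of the 4 libraries, the percent of the summed RPKM of 22 cadherin genes held by Cdh11, Cdh2, Cdh13 and the 19 other Cdh genes. The Cdh11 share is 82.7% and 79.9% in the control libraries and 72.5% and 67.4% in the mutant libraries.

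The catenins had smaller log2 fold changes than Cdh11 and Cdh13. Ctnnb1, which encodes beta-catenin, the link between cadherin and alpha-catenin and a transducer of Wnt signalling (chr9:120929216-120960507, plus strand), had 174 and 180.1 RPKM in the controls and 181 and 174 RPKM in the mutants. It was the only member whose groups overlapped, and the highest library was 1.04 times the lowest. Its log2 fold change was -0.04 (SE 0.12). Without mutant replicate 2 the value was 0.01 and on the log2(RPKM + 1) scale it also turned positive, so no direction is given for Ctnnb1.

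Ctnna1, the alpha-catenin gene (chr18:35118859-35254779, plus strand), had 111 and 119 RPKM in the controls and 131 RPKM in each of the mutants. The mutant libraries lay close to each other and above both controls, with a log2 fold change of 0.15 (SE 0.12) that ranged from 0.13 to 0.17 when 1 library was left out. Ctnnd1, the p120-catenin gene (chr2:84600071-84650765, minus strand), had 51.4 and 64.4 RPKM in the controls and 68.2 and 66.9 RPKM in the mutants. Control replicate 2 was nearer to the mutants than to control replicate 1. The 95% Poisson interval of control replicate 2 (63.1 to 65.7 RPKM) overlapped that of mutant replicate 2 (65.6 to 68.2 RPKM). The log2 fold change of Ctnnd1 was 0.18 (SE 0.14), and it was 0.05 without control replicate 1.

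The ratios of the catenins to the cadherins and to each other restate the RPKM values described above and add no separate evidence. For each RPKM of Cdh2 and Cdh11 together there were 0.814 and 1.06 RPKM of Ctnnb1 in the controls and 1.10 and 1.26 RPKM in the mutants. Relative to Ctnnb1, the level of Ctnna1 was 0.639 and 0.658 in the controls and 0.725 and 0.752 in the mutants. The ratio of Ctnnd1 to Ctnnb1 was 0.296 and 0.358 in the controls and 0.378 and 0.384 in the mutants. Each ratio was higher in both mutant libraries, with control replicate 2 near mutant replicate 1 for the ratio of Ctnnb1 to the cadherins.

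All 3 nectins were higher in both mutant libraries, as were 28.3% of all tested genes. Pvrl1, which encodes nectin-1 (chr9:43743984-43807461, plus strand), had 7.90 and 10.4 RPKM in the controls and 14.5 and 13.4 RPKM in the mutants. The groups were separate, with a log2 fold change of 0.57 (SE 0.16), and the value ranged from 0.41 to 0.73 when 1 library was left out. A larger log2 fold change was found for 10.8% of tested genes. Pvrl2, which encodes nectin-2 (chr7:19716644-19750483, minus strand), was the most abundant nectin, with 25.3 and 25.6 RPKM in the controls and 29.9 and 35.7 RPKM in the mutants. The controls were nearly equal and the mutants differed from each other by more than mutant replicate 1 differed from the controls. The log2 fold change of Pvrl2 was 0.32 (SE 0.14), with 0.21 without mutant replicate 2.

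Pvrl3, which encodes nectin-3, a partner of nectin-1 and nectin-2 in contacts between cells (chr16:46387706-46498525, minus strand), had 6.66 and 9.46 RPKM in the controls and 11.1 and 9.77 RPKM in the mutants. Control replicate 2 and mutant replicate 2 were close, with overlapping 95% Poisson intervals (8.80 to 10.2 RPKM and 9.12 to 10.4 RPKM). Control replicate 1 stood furthest from the others. Its log2 fold change was 0.34 (SE 0.19) with all libraries and 0.13 without control replicate 1. The nectins summed to 39.8 and 45.5 RPKM in the controls and 55.5 and 58.9 RPKM in the mutants, and Pvrl2 held between 53.8% and 63.5% of that sum.

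**Figure D2:**
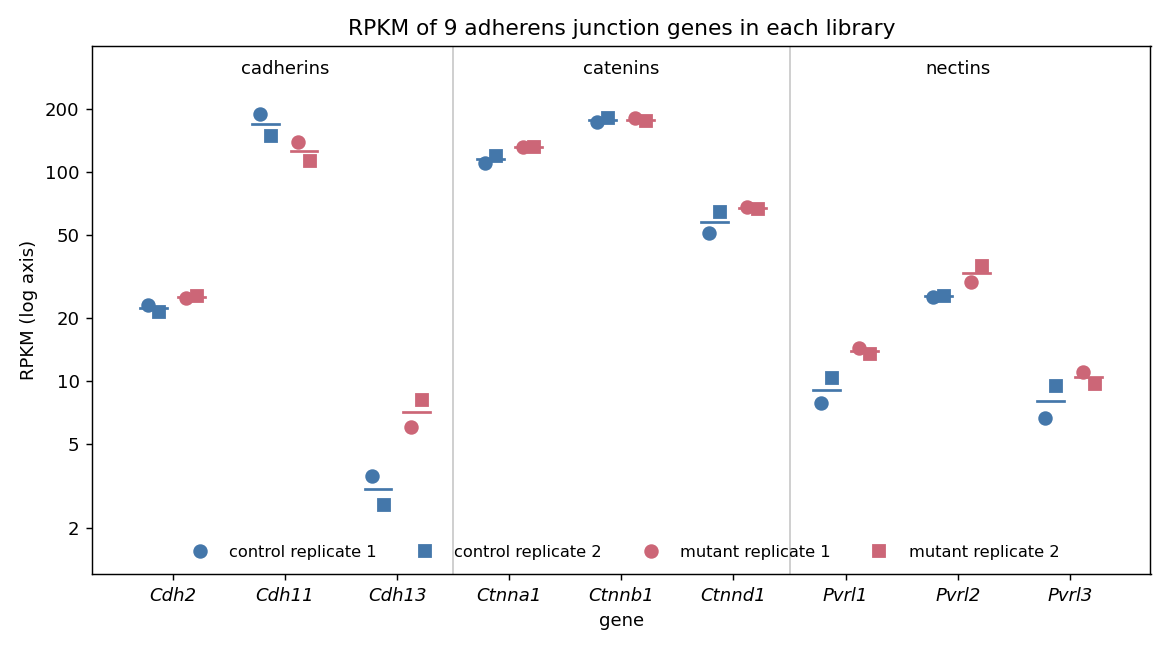
RPKM of each of the 9 genes on a log axis, with blue symbols for the 2 control libraries, red symbols for the 2 mutant libraries, circles for replicate 1, squares for replicate 2 and lines at the group means. Cdh11 is lower in both mutant libraries, Ctnnb1 overlaps at 174 to 181 RPKM, and the other 7 genes are higher in both mutant libraries.

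Over the whole list, both mutant libraries were above both controls for 7 of the 9 genes and below for 1. Of all 14123 tested genes, 28.3% were above and 19.2% below in the same way. As the list was named with these libraries known, nothing is read from its count. The median log2 fold change of the 9 genes was 0.18, against 0.01 over all tested genes, and 4 of the 9 were within 0.2 of zero. The separation of the 7 higher genes was the same on CPM (counts per M reads) with TMM scaling. CPM without TMM orders the libraries of a gene as RPKM does, so it is no separate check. Together the 9 genes took 0.230% to 0.242% of all reads in each library.

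The order of the members by RPKM was close to the same in all 4 libraries. Ctnnd1, Pvrl2, Cdh2, Pvrl1, Pvrl3 and Cdh13 held the lower 6 places in that order in every library. Of the upper 3, Cdh11 was above Ctnnb1 in control replicate 1, between Ctnnb1 and Ctnna1 in control replicate 2 and mutant replicate 1, and below both in mutant replicate 2. Over the 4 libraries the range of Cdh11 overlapped those of Ctnnb1 and Ctnna1, the range of Pvrl2 overlapped that of Cdh2, and Pvrl3 overlapped both Pvrl1 and Cdh13. Ctnnd1 overlapped neither of its neighbours. By mean RPKM, Ctnnb1 ranked 326, Cdh11 ranked 406 and Ctnna1 ranked 514 among the 18298 genes, while Cdh13 ranked 8341.

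**Figure D3:**
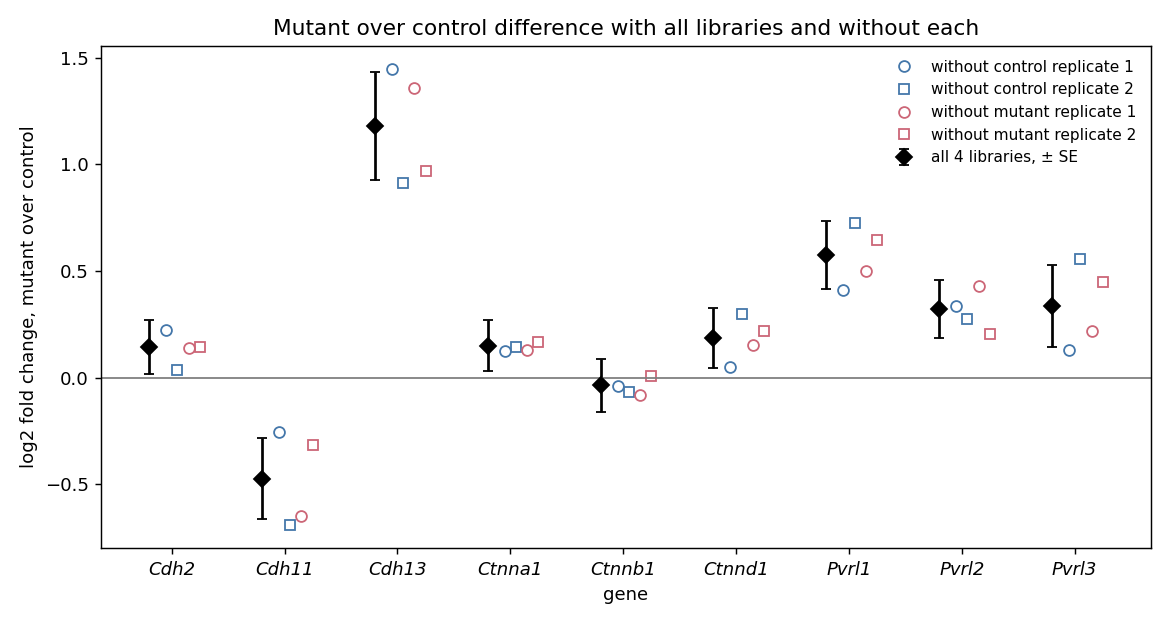
Log2 fold change of mutant over control for the 9 genes. Black diamonds with bars give the edgeR estimate from all 4 libraries ± SE, and open symbols give the estimate without 1 library (blue for a control, red for a mutant, circles for replicate 1, squares for replicate 2). Cdh13 stays between 0.91 and 1.45, Cdh11 between -0.69 and -0.25, and Ctnnb1 lies on both sides of zero.

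Some members share exon bases with other genes of the GENCODE annotation, and the strand of the libraries is not stated. Of the bases annotated as an exon of Ctnnd1 in any transcript, 61.2% are shared with Gm28635 on the same strand. For Ctnnb1, 14.6% are shared with Ulk4, which lies on the opposite strand. The overlap was 3.86% for Pvrl2, with the antisense gene Gm20512, and 1.48% for Ctnna1, with Lrrtm2. How the counting tool split such reads is not given in the sources used here. Reads covered 81.8% to 100% of the length of each member in each library, with the lowest shares at Pvrl3.

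Other genes of the junction were examined with 4 lists of 73 genes in all, of which 62 could be tested. The lists were chosen with earlier results of these data known. In edgeR's quasi-likelihood test with Benjamini-Hochberg adjusted p over all genes, 0 of the 62 passed the threshold of 0.05, as did 0.00% of all tested genes. At an unadjusted p under 0.05, 21 were higher and 2 were lower in the mutants, where 9.29% and 6.28% of all tested genes were. DESeq2 in place of edgeR placed 9 genes higher and 1 lower at an adjusted p under 0.05, where it placed 3.07% and 1.86% of all tested genes. Without a filter on low counts edgeR called 3 of 70 (Cdh4, Cdh10 and Ctnnd2) against 1.56% of all genes, and with the replicate number added as a block it called 1 of 62 (Ctnnd2) against 0.828%. The median log2 fold change of the 62 was 0.19.

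Of 13 other cadherins tested, 6 were higher and 0 were lower in both mutant libraries (28.3% and 19.2% of all tested genes), and the median log2 fold change was 0.31. Cdh3, which encodes P-cadherin, was the most abundant of them, with 6.42 and 7.45 RPKM in the controls and 10.7 and 6.74 RPKM in the mutants. Its groups overlapped (log2 fold change 0.29, SE 0.24, edgeR adjusted p = 0.623), and the value ranged from -0.10 to 0.60 when 1 library was left out, so no direction is given. Cdh24 had 2.83 and 3.11 RPKM in the controls and 3.70 and 3.87 RPKM in the mutants (log2 fold change 0.31, SE 0.19, edgeR adjusted p = 0.508). Neither difference passed the test.

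Cdh15 encodes M-cadherin, the cadherin of skeletal muscle precursors, and had 0.870 and 0.350 RPKM in the controls and 2.70 and 5.75 RPKM in the mutants. The mutants were well above the controls (log2 fold change 2.76, SE 0.53, edgeR adjusted p = 0.0959, DESeq2 adjusted p = 1.04e-05), and the value ranged from 2.13 to 3.56 when 1 library was left out. Most skeletal muscle markers were higher in the mutants as well. Summed over the 8 of 9 listed markers with a read, the level was 78.6 and 29.2 RPKM in the controls and 134 and 150 RPKM in the mutants. Of 7 tested markers, 5 were higher in both mutant libraries (28.3% of all tested genes). Myogenin (Myog), a defining regulator of muscle differentiation named after its values were seen, had 5.11 and 1.31 RPKM in the controls and 8.57 and 14.7 RPKM in the mutants. Ckm (1.51 and 0.0270 RPKM in the controls, 0.296 and 0.250 RPKM in the mutants) overlapped, and so did Tnnt3 (8.07 and 3.83 RPKM against 8.68 and 7.83 RPKM). The satellite cell factor Pax7 was at or close to 0 in every library. The part of muscle RNA in the Cdh15 values was not tested.

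Cdh4, which encodes R-cadherin, had 0.0744 and 0.0419 RPKM in the controls and 0.358 and 0.565 RPKM in the mutants (log2 fold change 2.95, SE 0.47, edgeR adjusted p = 0.0831, DESeq2 adjusted p = 0.00101). Cdh10 had 0.0699 and 0.0674 RPKM in the controls and 0.550 and 0.447 RPKM in the mutants (log2 fold change 2.80, SE 0.45, edgeR adjusted p = 0.0831, DESeq2 adjusted p = 0.0174). Both genes were named after their values were seen, and they stayed under 1 RPKM in every library. They rest on 5 to 10 reads per control library and 43 to 102 reads per mutant library. Neither gene had 10 reads in both controls, so each passed the filter on low counts only with the mutant libraries, where it was high. Their tests and their place in the counts above are partly set by that filter.

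The cadherins that mark epithelial and endothelial cells had few reads. Cdh1, the E-cadherin of epithelia, had 2 and 6 reads in the controls and 4 and 25 reads in the mutants, and its count was too low to be tested. Summed epithelial markers were 4.26 and 10.7 RPKM in the controls and 21.5 and 27.4 RPKM in the mutants, nearly all of it from the keratin gene Krt18, while 4 of these 6 markers, Epcam, Krt5, Krt14 and Cldn4, were under 1 RPKM in every library. Cdh5, the VE-cadherin of endothelium, had 0.380 and 0.143 RPKM in the controls and 0.185 and 0.0531 RPKM in the mutants (log2 fold change -1.13, SE 0.73, edgeR adjusted p = 0.529), and the value ranged from -2.33 to -0.26 when 1 library was left out. Of 6 endothelial markers, 5 were under 1 RPKM in every library.

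Of 12 further catenins, nectins and related genes tested, 10 were higher and 0 were lower in both mutant libraries (28.3% and 19.2% of all tested genes). The median log2 fold change was 0.69. Cadm2 and Ctnnd2, named after their values were seen, are among the 10, and neither had 10 reads in both controls. Cadm2 had 6 and 7 reads in the controls, and Ctnnd2 had 6 and 28. Both passed the filter on low counts only with the mutant libraries, where they were high. Jup, which encodes plakoglobin and can take the place of beta-catenin on a cadherin tail, had 18.46 and 14.1 RPKM in the controls and 25.5 and 23.5 RPKM in the mutants (log2 fold change 0.55, SE 0.18, edgeR adjusted p = 0.216). Pkp4, an armadillo protein of the p120-catenin family, had 8.94 and 12.7 RPKM in the controls and 16.5 and 20.3 RPKM in the mutants (log2 fold change 0.73, SE 0.19, edgeR adjusted p = 0.146, DESeq2 adjusted p = 0.0218). Groups of both genes were separate, and only Pkp4 of the 2 passed the threshold in DESeq2. Leaving out 1 library gave 0.31 to 0.78 for Jup and 0.52 to 0.94 for Pkp4.

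The adhesion receptor gene Pvr had 4.87 and 8.69 RPKM in the controls and 10.9 and 11.7 RPKM in the mutants (log2 fold change 0.70, SE 0.25, edgeR adjusted p = 0.250). Mllt4, which encodes afadin and was named after its values were seen, had 5.46 and 6.07 RPKM in the controls and 8.40 and 7.06 RPKM in the mutants (log2 fold change 0.38, SE 0.15, edgeR adjusted p = 0.290). Leaving out 1 library gave 0.36 to 1.11 for Pvr, the lowest without control replicate 1, and 0.23 to 0.52 for Mllt4. Afadin binds the tails of the nectins described above. Its RNA was higher in both mutant libraries, as was that of 28.3% of all tested genes, so no link to the nectins is read from it.

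Less abundant genes of this list had larger differences. Cadm4, a nectin-like adhesion molecule, had 2.25 and 1.01 RPKM in the controls and 4.60 and 7.62 RPKM in the mutants (log2 fold change 1.86, SE 0.43, edgeR adjusted p = 0.122, DESeq2 adjusted p = 0.00146). Ctnna2, the alpha-catenin known from neurons, had 0.952 and 0.636 RPKM in the controls and 1.37 and 1.48 RPKM in the mutants (log2 fold change 0.80, SE 0.29, edgeR adjusted p = 0.254). Ctnnd2, the delta-catenin known from neurons and named after its values were seen, had 0.0479 and 0.180 RPKM in the controls and 0.698 and 1.35 RPKM in the mutants (log2 fold change 3.08, SE 0.58, edgeR adjusted p = 0.0928, DESeq2 adjusted p = 4.2e-05). At the other end, Ctnnal1 (log2 fold change 0.15, SE 0.20) and Cadm3 (log2 fold change -0.04, SE 0.40) had overlapping groups. Leaving out 1 library gave 1.33 to 2.57 for Cadm4, 0.48 to 1.14 for Ctnna2 and 2.48 to 4.29 for Ctnnd2, while the sign turned for Ctnnal1 (-0.01 to 0.29) and Cadm3 (-0.53 to 0.59).

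Of 29 linkers and regulators tested, 21 were higher and 2 were lower in both mutant libraries (28.3% and 19.2% of all tested genes). The median log2 fold change was 0.15. Zyx, which encodes the actin-associated protein zyxin, was the most abundant, with 264 and 310.0 RPKM in the controls and 385 and 451 RPKM in the mutants (log2 fold change 0.50, SE 0.14, edgeR adjusted p = 0.167, DESeq2 adjusted p = 0.0473). The small GTPases Rhoa (log2 fold change 0.15, SE 0.14) and Cdc42 (log2 fold change 0.09, SE 0.14) were nearly level between the groups, and Cdc42 overlapped, with values from -0.04 to 0.20 when 1 library was left out. Plekha7, which ties p120-catenin to microtubules, had 0.772 and 0.816 RPKM in the controls and 1.68 and 1.92 RPKM in the mutants (log2 fold change 1.13, SE 0.23, edgeR adjusted p = 0.0985, DESeq2 adjusted p = 0.0215). Tjp1, which encodes the scaffold ZO-1, had 16.1 and 23.8 RPKM in the controls and 33.4 and 31.3 RPKM in the mutants (log2 fold change 0.66, SE 0.19, edgeR adjusted p = 0.171, DESeq2 adjusted p = 0.0346), and 0.42 to 0.91 when 1 library was left out.

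The 2 lower genes of that list were Vezt, which encodes vezatin (log2 fold change -0.20, SE 0.13), and the Src family kinase gene Fyn (log2 fold change -0.20, SE 0.13). Neither passed the test (edgeR adjusted p = 0.541 and 0.544). Smooth muscle markers, which include genes of the contractile actin cytoskeleton, summed to 1383 and 1581 RPKM in the controls and 2057 and 1932 RPKM in the mutants, most of it from Acta2. Of these 5 markers, 4 were higher in both mutant libraries (28.3% of all tested genes). Smtn overlapped (97.6 and 72.4 RPKM in the controls, 84.0 and 71.6 RPKM in the mutants), and 0 of the 5 markers passed the edgeR test. Their part in the values of the linkers was not tested.

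**Figure D4:**
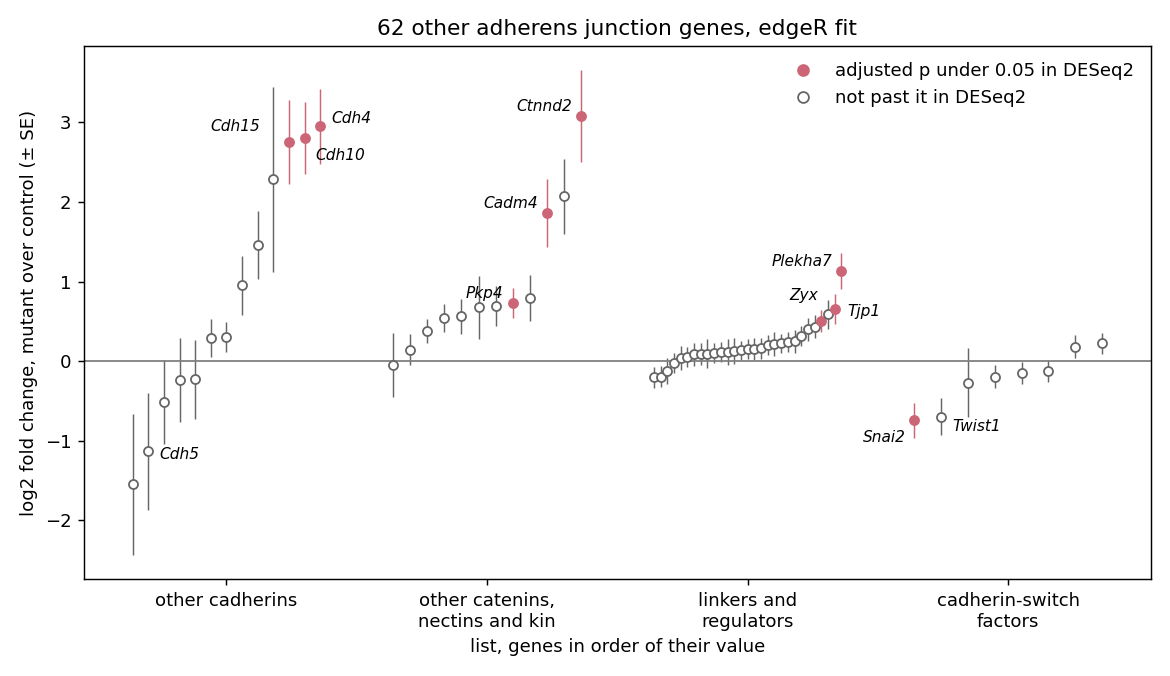
Log2 fold change of mutant over control ± SE in the edgeR fit for 62 other genes of the adherens junction in 4 lists, each list in the order of its values. Filled red points mark the 10 genes with an adjusted p under 0.05 in DESeq2, 9 of them above zero, and none of the 62 was past it in edgeR.

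Transcription factors that repress or switch cadherins were examined as a separate list, of which 8 could be tested. Snai2, which encodes SLUG, had 36.3 and 24.3 RPKM in the controls and 19.6 and 17.8 RPKM in the mutants (log2 fold change -0.74, SE 0.22, edgeR adjusted p = 0.187, DESeq2 adjusted p = 0.0427). Twist1 had 63.6 and 40.7 RPKM in the controls and 33.9 and 32.7 RPKM in the mutants (log2 fold change -0.70, SE 0.23, edgeR adjusted p = 0.222). These were the 2 genes of the list that were lower in both mutant libraries, and in both cases control replicate 1 was highest. Without control replicate 1 the log2 fold change was -0.40 for Snai2 and -0.31 for Twist1.

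Snai1 was the most abundant factor and did not separate the groups, with 117 and 131 RPKM in the controls and 125 and 109 RPKM in the mutants (log2 fold change -0.13, SE 0.14). Tcf3 overlapped as well (log2 fold change -0.15, SE 0.14). Tcf4 (log2 fold change 0.23, SE 0.13) and Zeb1 (log2 fold change 0.18, SE 0.14) were higher in both mutant libraries without passing the test (edgeR adjusted p = 0.476 and 0.616). Twist2, described above for the Cre, overlapped (log2 fold change -0.27, SE 0.44), with values from -0.83 to 0.64 when 1 library was left out.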

How the data were processed

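The authors had the RNA of the 4 cultures sequenced by a service and deposited, per gene, a raw read count, an RPKM (the count scaled by gene length and by all reads on genes) and the coverage of the gene body in percent, used here as a description. The submitters' processing notes name SAMtools and mm9. The aligner, counting tool and annotation are not given in the sources used here, and the labels name both Ion Proton and Illumina. Positions are from GENCODE M21 (GRCm38), matched by Entrez identifier. Genes absent from a file were given 0.

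edgeR 4.0.16 in R 4.3.3 was fitted to the counts (robust quasi-likelihood, TMM factors 0.966 to 1.03). A gene needed 10 or more counts in 2 or more libraries, which left 14123, with Benjamini-Hochberg adjustment at 0.05. Alternatives were DESeq2 1.42.0, RLE factors, other filters, limma 3.58.1 on log2(RPKM + 1) and log2(RPKM + 0.1), a block for the replicate number, and leaving out each library. An exact permutation test of 2 against 2 cannot go below 0.333. The scripts were tested on simulated data. Replicate counts differed far beyond sampling noise (chi-square per degree of freedom 51.5 in the controls, 24.9 in the mutants), so no library was counted as a repeat.

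The members and lists were chosen with earlier results of these data known. All members were named, with Senp6, Twist2, Cdh1, Cdh5, Cdh15 and, per list, the 3 genes of highest mean RPKM and the 2 highest and 2 lowest log2 fold changes among genes with a mean RPKM of at least 1. Cdh7, Jub, Fer, Cnmd, Myf5 and Hbb-b1 had no row under those symbols. Marker lists were described by counts and summed RPKM.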

Additional observations from a re-analysis of the deposited data

How the results depend on the processing

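How many genes passed the threshold of 0.05 depended on the tool and on the libraries. The edgeR test called 0 of 14123 genes (smallest adjusted p 0.0510, 2199 genes at an unadjusted p under 0.05), and so did RLE factors, a minimum of 10 counts in every library and limma on either RPKM scale. DESeq2 called 697, edgeR without a filter 286 of 18298. Leaving out 1 library, which leaves a lone sample assumed to vary like the other group, called 674 without control replicate 1, 2823 without control replicate 2, 425 without mutant replicate 1 and 143 without mutant replicate 2. Among the 62 other junction genes these fits called 0 in the main test, 10 with DESeq2, 3 without a filter, of 70 tested, and 4 to 16 when 1 library was left out. A replicate block gave 117 calls, or 0.828%, and 1 of the 62, Ctnnd2 (edgeR adjusted p = 0.0393). The deviations of same-numbered libraries had a correlation of -0.0654 across genes. With 1 such deviation per group, this value cannot tell whether same-numbered libraries shared a litter or day, and the labels do not say.

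The median log2 fold change of the 9 members lay between 0.13 and 0.28 when 1 library was left out. Their non-overlapping groups then numbered 8 or 9, a count that can only stay or rise when a library is dropped. Over 99 values of a member under an alternative, 93 moved by less than the spread between replicates and 6 moved further, 2 for Cdh2 and 4 for Ctnnb1. Of the latter, 3 had the opposite sign. The cause was not tested. With 2 libraries per group, leaving 1 out moves a group mean by no more than about this spread by construction. The 93 are therefore no measure of how firm the values are. For Ctnnb1, Ctnnd1 and Pvrl3 the log2 fold change was smaller in size than the log2 ratio of control replicate 1 over control replicate 2 (-0.05, -0.33 and -0.51).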

Other observations

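The gene descriptions in the files attach the Gene Ontology term for the cell-cell adherens junction to 20 genes, of which 5 are members (Cdh2, Ctnna1, Ctnnb1, Ctnnd1 and Pvrl2), 5 are in the lists described above and 10 are neither. Of these 10, 9 were tested, and they are named here after their values were seen. Both mutant libraries were above both controls for 5 of them and below for 1 (28.3% and 19.2% of all tested genes). The median log2 fold change was 0.22. Des, which encodes the muscle intermediate filament desmin and is also among the skeletal muscle markers, had 16.9 and 10.5 RPKM in the controls and 42.6 and 41.9 RPKM in the mutants (log2 fold change 1.58, SE 0.24, edgeR adjusted p = 0.0831). The gap junction gene Gja1, the most abundant of the 10, had 128 and 178 RPKM in the controls and 161 and 173 RPKM in the mutants, and its groups overlapped (log2 fold change 0.09, SE 0.17). Sptan1, a spectrin of the membrane skeleton, had 49.6 and 52.1 RPKM in the controls and 59.1 and 63.2 RPKM in the mutants (log2 fold change 0.22, SE 0.12, edgeR adjusted p = 0.442). Pgm5, the gene of a phosphoglucomutase-like protein of adhesion sites, was the 1 that was lower, with 6.62 and 2.91 RPKM in the controls and 2.21 and 1.45 RPKM in the mutants (log2 fold change -1.42, SE 0.41, edgeR adjusted p = 0.181). The desmosomal genes Dsp and Pkp3, which are among the 5 higher genes, stayed at or under 0.254 RPKM in every library. Xirp1, also among the 5, stayed at or under 0.613 RPKM.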
